A study of Mus musculus with 4 samples.

Results

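The genes described here are the neighbours of Pdcd1 on mouse chromosome 1. Pdcd1 encodes PD-1, the inhibitory immune receptor whose deletion the study examined. Members were the genes whose deposited position starts between 91 and 97.1 Mb of chromosome 1, with Pdcd1 itself left out and with a summed count of at least 40 over the 4 libraries. The rule used position and total count, and no difference between the groups. It gave 41 genes out of 23475 listed in the files, and left out 24 further listed genes of the window with fewer counts. Of the 41, 36 were protein-coding, 37 started below the centre of Pdcd1 at 94.045 Mb and 4 started above it. All 66 listed positions of the window were identical to GENCODE M21 on the build GRCm38, which is used for every coordinate below.

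The neighbours form no pathway. They are a stretch of chromosome that holds enzymes, kinases, a kinesin, transcriptional regulators and receptor subunits side by side. Genes that lie close together on a chromosome are usually inherited together, so the neighbours of an engineered gene travel with it through breeding. Of the genes nearest to Pdcd1, Neu4 encodes a sialidase and D2hgdh a mitochondrial enzyme that oxidises the metabolite D-2-hydroxyglutarate, while Stk25, a little farther off, encodes a protein kinase of the Golgi apparatus.

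Gene expression was measured by mRNA sequencing of cortical astrocytes, glial cells that were isolated from mice on postnatal day 5. The 2 libraries labelled KO came from mice that the labels call PD1cKO-Cx3, a conditional deletion of PD-1, and the 2 labelled WT came from PD1fl/fl mice, which carry the floxed gene. The WT animals thus also have an engineered Pdcd1 allele, and the labels do not say how many copies of it the KO animals have. The sources used here do not give the driver behind the name Cx3, the deleted exons, the mouse strain or the number of animals per library. Whether the libraries of a group stem from separate animals is not in the labels, and p-values therefore measure only the spread between these 4 libraries.

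Listed counts summed to between 14224519 and 16961160 per library. KO replicate 2 stood apart, with 2472 counts of Ddx3y on the Y chromosome and no Xist, where the other libraries had no Ddx3y and at least 6732 counts of Xist, and results are also given without it. The 8 astrocyte markers were present in all 4 libraries, with summed levels of 7068 and 6330 CPM (counts scaled to the size of the library) in KO and 7094 and 6729 CPM in WT. The 12 microglial and macrophage markers summed to 4326 and 3615 CPM in KO and to 829 and 1145 CPM in WT, and all 12 had a fold change above 1. The 6 endothelial markers summed to 466 and 228 CPM in KO and to 129 and 58.3 CPM in WT. The 7 markers of the oligodendrocyte lineage summed to 2573 and 2728 CPM in KO and to 2383 and 1834 CPM in WT. In the other direction, the 6 neuronal markers summed to 2031 and 2115 CPM in KO and to 2218 and 2477 CPM in WT. Of these 6, 4 had a fold change below 1 and 2 above. For the 4 pericyte markers the sums were 632 and 388 CPM in KO and 315 and 341 CPM in WT. Of 4 T cell markers 1 was listed, at 1.00 and 1.10 CPM in KO and 0 and 0 in WT. The part of these differences in the values of the neighbours was not tested, and in such bulk samples fewer cells of a type and less RNA per cell cannot be told apart. Pdcd1 had 20 counts in KO replicate 2, at most 4 (unlisted) in KO replicate 1, and 0 and 0 in WT, so its counts do not check the labels.

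The neighbours differed in both directions. D2hgdh (7.81-fold) and Stk25 (3.26-fold) were lower in KO, and Traf3ip1 (3.29-fold), Neu4 (2.65-fold) and Ing5 (1.73-fold) were higher, each with no overlap between the groups. Most of the other neighbours lay near 0 or had wide errors, as the plot of fold changes by position shows. Of the 41 members, 40 passed the low-count filter and were tested, and Rbm44 was not. At an adjusted p under 0.05, 0 of the 40 passed (edgeR quasi-likelihood test, Benjamini-Hochberg over 17696 genes, of which 0.017% passed). At an unadjusted p under 0.05 there were 8 of 40, 4 higher and 4 lower, where 8.29% of all tested genes reached that level, 5.88% higher and 2.41% lower. DESeq2 called 4 of the 40 at an adjusted p under 0.05, Neu4 and Traf3ip1 higher and D2hgdh and Stk25 lower, against 2.14% of all genes. limma-voom called 1, Stk25, against 0.158%. The groups did not overlap for 18 of the 40, 12 higher and 6 lower, where they did not overlap for 39.6% of all tested genes, 21.2% higher and 18.4% lower. That share is near the background. The median log2 fold change was 0.03 over the 40 members and -0.0003 over all tested genes, with 21 members above 0 and 19 below. The sign of the members' median differed between alternatives. Without KO replicate 1 the count at an unadjusted p under 0.05 was 4, where the share over all genes was also lower, at 3.27%. Without KO replicate 2 it was 5, where that share was 5.36%, and both sets held D2hgdh, Stk25, Neu4 and Traf3ip1.

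**Figure D1:**
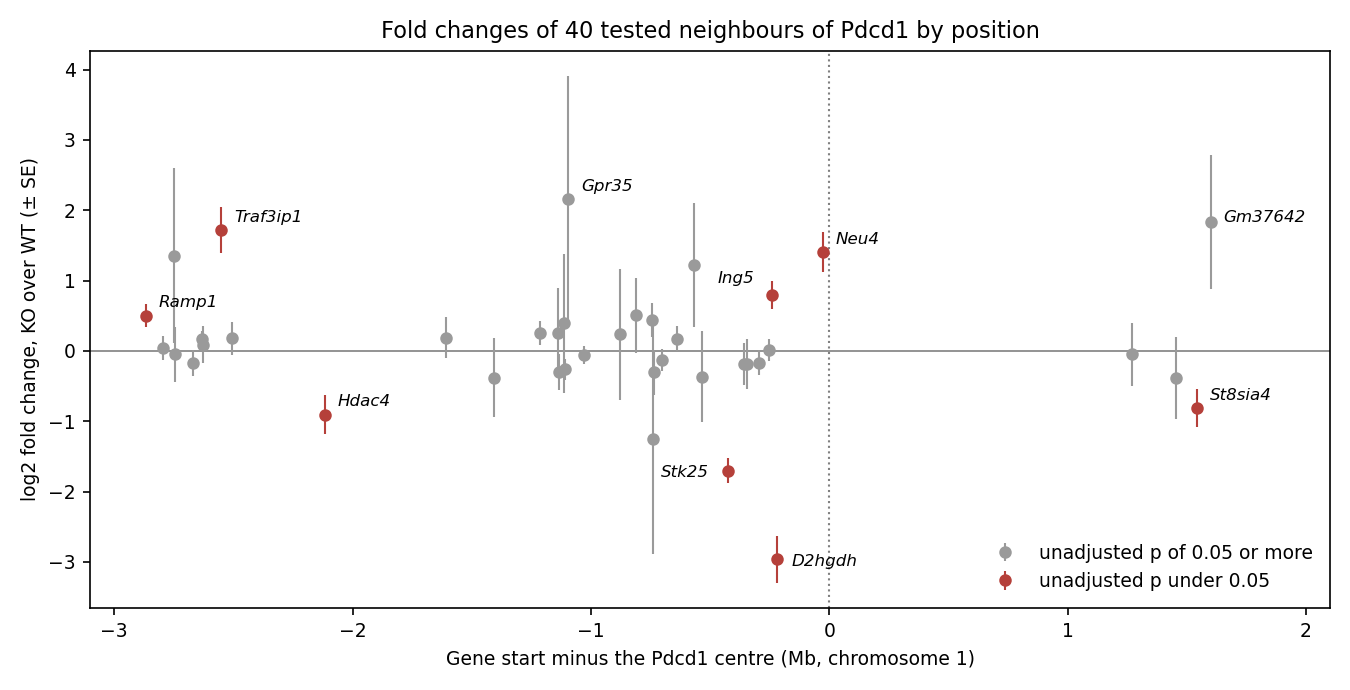
Fold changes of the 40 tested neighbours. The x axis is the start of each gene relative to the centre of Pdcd1 in Mb, and the y axis is the log2 fold change of KO over WT with its standard error; red points had an unadjusted p under 0.05. D2hgdh at -2.97 and Stk25 at -1.70 are the lowest points with small errors, and the grey points far from 0, such as Gpr35 at 2.16, have long error bars.

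By distance, the 8 tested members within 0.5 Mb of the centre held 4 of the 8 genes with an unadjusted p under 0.05. Of the 19 members between 0.5 and 1.5 Mb, 0 had such a p, and of the 13 beyond 1.5 Mb, 4 did, where 8.29% of all tested genes had one. The median absolute log2 fold change was 0.49 within 0.5 Mb, 0.31 between 0.5 and 1.5 Mb and 0.19 beyond, where it was 0.30 over all tested genes. The bins are small, and they also differ in level, with a median of 39.9 CPM in the nearest, 9.61 in the middle and 37.7 in the farthest.

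D2hgdh, whose enzyme converts D-2-hydroxyglutarate to 2-oxoglutarate in mitochondria, had the largest fold change among the 40. D2hgdh (ENSMUSG00000073609, chromosome 1, 93824909 to 93852348, plus strand) had 74 and 61 counts in the KO libraries, against 631 and 403 counts in the WT libraries. On the CPM scale these were 4.62 and 3.74 in KO and 37.4 and 28.0 in WT. Both KO libraries lay far below both WT libraries. D2hgdh was 7.81-fold lower in KO, with a log2 fold change of -2.97 ± 0.33 (SE), an unadjusted p of 0.000132 and an adjusted p of 0.103 (edgeR). DESeq2 gave an adjusted p of 5.55e-09, and over all alternatives including the sum with its copies below, the adjusted p ran from 5.55e-09 to 0.40 and the log2 fold change from -3.16 to -2.57. The gene passed in edgeR without WT replicate 2 (adjusted p = 0.045), without a low-count filter (0.0355) and with a minimum mean CPM of 5 (0.0246).

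D2hgdh has 2 near-identical partial copies between itself and Neu4, the unprocessed pseudogenes Gm18666 (chromosome 1, 93906244 to 93916768) and Gm7889 (chromosome 1, 93975353 to 93985816), both on the plus strand. Each copy is 958 bases long in the annotation and aligned without a gap to exons 3 to 5 and 8 to 10 of the longest D2hgdh transcript, all in coding sequence. Gm18666 differed from D2hgdh at 6 of these bases (99.4% identical) and Gm7889 at 8 (99.2% identical). A stretch of 90 bases of exon 4 (D2hgdh chr1:93829798-93829887, Gm18666 chr1:93906852-93906941, Gm7889 chr1:93975961-93976050, plus strand, from the GENCODE M21 transcripts) is shown because it holds 3 of the differing positions, which are in capitals.
D2hgdh: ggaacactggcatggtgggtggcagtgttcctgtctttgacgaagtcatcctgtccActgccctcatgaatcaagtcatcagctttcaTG
Gm18666: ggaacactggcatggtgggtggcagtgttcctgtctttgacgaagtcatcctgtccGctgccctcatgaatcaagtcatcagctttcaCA
Gm7889: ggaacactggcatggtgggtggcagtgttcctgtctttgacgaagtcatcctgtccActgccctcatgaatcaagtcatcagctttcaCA
Counted from the first base of the D2hgdh transcript, the substitutions here were A819G in Gm18666, and T851C and G852A in both copies. A short read from within these 958 bases that spans no differing base matches the gene and its copies equally, so the counts of all 3 are uncertain, while the rest of the 3459 bases of the transcript lies outside the aligned blocks.

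The copies had few counts, and more of them in KO. Gm18666 had 18 and 14 counts in KO, against 1 and 0 in WT, and Gm7889 had 5 and 6 in KO, against 0 and 0 in WT. Only Gm18666 passed the low-count filter (edgeR, unadjusted p = 0.0428, adjusted p = 0.568). Between them lies Gm9994 (ENSMUSG00000093805), which GENCODE M21 names Gal3st2b, a member of the galactose sulfotransferases, and it had 8 and 7 counts in KO and 0 and 0 in WT. These 3 genes fell short of the summed count of 40 and are no members, and they are named here after their values were seen. Added together, D2hgdh and its 2 copies had 97 and 81 counts in KO and 632 and 403 in WT, a log2 fold change of -2.57 ± 0.32 (SE; edgeR, unadjusted p = 0.000238, adjusted p = 0.105). The sum of gene and copies was thus also lower in KO, with no overlap between the groups. Reads that were counted for none of the 3 are not in this sum, so it does not settle the uncertainty of their counts. The plot of counts between Ing5 and Pdcd1 shows these genes in their order on the chromosome.

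**Figure D2:**
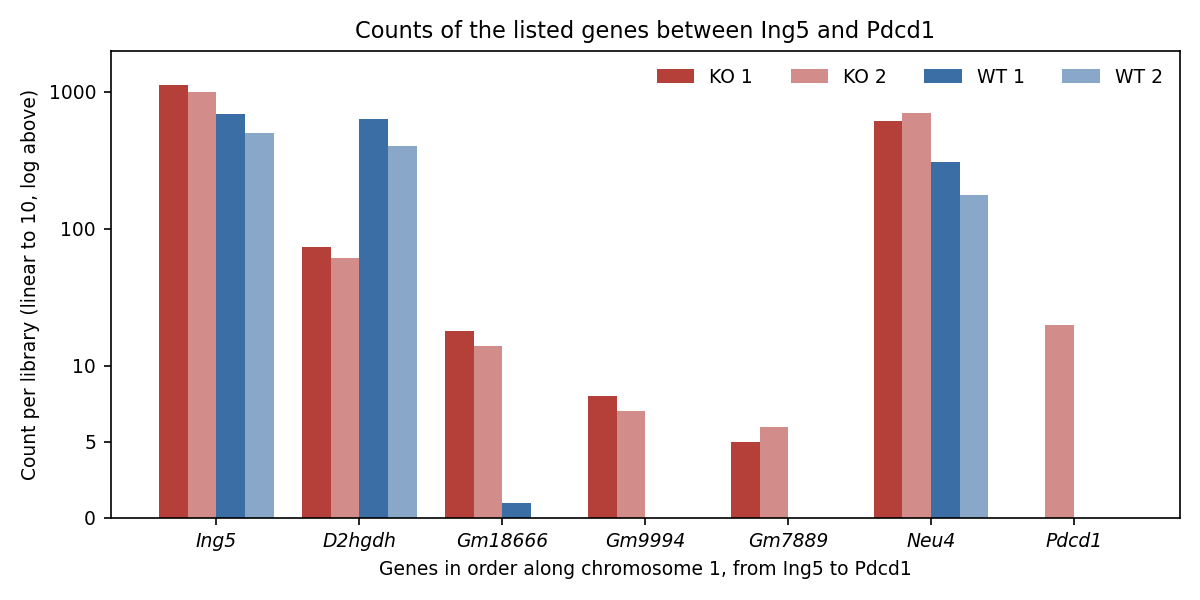
Counts in each library for the listed genes from Ing5 to Pdcd1. The x axis gives the genes in chromosomal order and the y axis the count, linear up to 10 and logarithmic above; red bars are KO and blue bars WT. D2hgdh is low in both KO libraries, while Gm18666, Gm9994, Gm7889 and Neu4 are higher in both; a missing bar is a count of 0, except that Pdcd1 is unlisted in KO 1.

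Neu4, the neighbour nearest to Pdcd1, was higher in KO. It encodes a sialidase, which removes sialic acids from glycans, and it is known from cells of the oligodendrocyte lineage. Neu4 (ENSMUSG00000034000, chromosome 1, 94020451 to 94028334, plus strand) had 614 and 702 counts in KO, against 310 and 177 in WT, which is 38.4 and 43.0 CPM in KO and 18.4 and 12.3 CPM in WT. Both KO libraries lay above both WT libraries. The gene was 2.65-fold higher, with a log2 fold change of 1.41 ± 0.29 (SE; edgeR, unadjusted p = 0.0032, adjusted p = 0.292). In DESeq2 the adjusted p was 0.0103, and the alternatives ran from 0.0103 to 1.00 in adjusted p and from 1.15 to 1.73 in log2 fold change. Beside it, the 7 oligodendrocyte lineage markers all stood above 0 on the log2 scale (median 0.64), their sums did not overlap between the groups, and their part in the value of Neu4 was not tested.

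Stk25 was the neighbour with the smallest p. It encodes a kinase of the germinal centre kinase family that acts at the Golgi apparatus and in neuronal polarity. Stk25 (ENSMUSG00000026277, chromosome 1, 93619751 to 93658659, minus strand) had 1078 and 1441 counts in KO, against 4217 and 3705 in WT, or 67.4 and 88.4 CPM in KO and 249.9 and 257.6 CPM in WT. The WT libraries lay close together and both KO libraries far below them. It was 3.26-fold lower in KO, with a log2 fold change of -1.70 ± 0.17 (SE; edgeR, unadjusted p = 8.36e-05, adjusted p = 0.0987). DESeq2 gave an adjusted p of 3.85e-16 and limma-voom 0.0203. In edgeR the gene passed without a low-count filter (adjusted p = 0.027) and with a minimum mean CPM of 5 (0.0246), and over all alternatives the adjusted p ran from 3.85e-16 to 0.268 and the log2 fold change from -1.91 to -1.52. Stk25 shares 1371 of its 5812 exonic bases with genes on the opposite strand, mainly with Farp2, and the strand setting of the counting is not known here, so both counts are uncertain. Farp2, an exchange factor for small GTPases, had only 45 and 118 counts in KO and 135 and 71 in WT. With Farp2 added to it, Stk25 had a log2 fold change of -1.65 ± 0.18 (SE; edgeR, unadjusted p = 0.000135, adjusted p = 0.103). Reads that were counted for neither gene are not in this sum, so it does not settle the uncertainty.

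Ing5, between Stk25 and D2hgdh, was higher in KO. It encodes a reader of methylated histone H3 that belongs to histone acetyltransferase complexes. Ing5 (ENSMUSG00000026283, chromosome 1, 93803965 to 93822101, plus strand) had 70.2 and 61.4 CPM in KO, against 41.2 and 34.6 CPM in WT, with no overlap. The fold change was 1.73, or 0.79 ± 0.21 on the log2 scale (SE; edgeR, unadjusted p = 0.00892, adjusted p = 0.392). The 4 genes between Stk25 and Ing5 lay near 0. The apoptosis regulator Bok had 18.7 and 17.1 CPM in KO and 23.9 and 17.0 CPM in WT. Thap4, a THAP zinc finger gene, had 14.0 and 9.69 CPM in KO and 12.9 and 14.2 CPM in WT. Atg4b, the protease that prepares LC3 for autophagy, had 163.9 and 126.8 CPM in KO and 170.6 and 155.3 CPM in WT. Groups overlapped for all 3 of these genes. Dtymk, the thymidylate kinase that lies next to Ing5, overlapped as well, at 230.6 and 216.7 CPM in KO and 246.5 and 195.6 CPM in WT. From Stk25 to Neu4 the direction thus changed several times along the chromosome, with log2 fold changes of -1.70, -0.19, -0.19, -0.17, 0.02, 0.79, -2.97 and 1.41 in order.

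The sequences just before the starts of Ing5 and Stk25 are shown because these genes lie less than 0.5 Mb apart and differ in opposite directions. Each is the 250 bases before the start that RefSeq gives on GRCm38.p6, read on the gene's own strand. The RefSeq start of Stk25 lies inside the longer GENCODE gene given above. Of the 41 members, 31 had an entry. Capitals mark a CCAAT box (CCAAT), a GC box (GGGCGG) or a TATA box (TATAAA), searched on both strands.
Ing5 (chr1:93803715-93803964, plus strand): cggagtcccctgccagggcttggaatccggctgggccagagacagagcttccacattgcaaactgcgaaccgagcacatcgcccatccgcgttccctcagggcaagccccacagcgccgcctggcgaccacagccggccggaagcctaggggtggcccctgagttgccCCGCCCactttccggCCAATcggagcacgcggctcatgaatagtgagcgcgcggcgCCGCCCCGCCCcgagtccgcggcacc
Stk25 (chr1:93635728-93635977, minus strand): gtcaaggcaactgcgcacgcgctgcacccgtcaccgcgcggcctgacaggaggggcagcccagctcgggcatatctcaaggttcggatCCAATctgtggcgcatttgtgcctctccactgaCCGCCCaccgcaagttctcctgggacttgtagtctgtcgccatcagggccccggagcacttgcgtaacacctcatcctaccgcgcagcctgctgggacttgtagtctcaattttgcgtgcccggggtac
Over all 32851 promoters of the table, 33.8% held a CCAAT box, 32.7% a GC box and 12.4% a TATA box in the same window. Ing5 held 1 CCAAT box, 3 GC boxes, a pair of which share 1 base, and 26 CG dinucleotides, where the median promoter held 6. Stk25 held 1 CCAAT box, 1 GC box and 19 CG dinucleotides. In the same window D2hgdh held 2 GC boxes and 10 CG dinucleotides, and Neu4 held none of the 3 motifs and 5 CG dinucleotides. The RefSeq starts of D2hgdh and Neu4 also lie inside the GENCODE genes given above. The window of D2hgdh thus lies wholly within its gene, and that of Neu4 partly. None of the 3 motifs was thus held by all 4 genes, and these matches describe letters only.

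Farther from Pdcd1, 4 more neighbours had an unadjusted p under 0.05 in edgeR. Traf3ip1, which encodes a subunit of the intraflagellar transport machinery that builds cilia, lies 2550.4 kb below the centre (ENSMUSG00000034292, 91494647 to 91529307, plus strand). It had 592 and 636 counts in KO, against 147 and 207 in WT, or 37.0 and 39.0 CPM in KO and 8.71 and 14.4 CPM in WT. Both KO libraries were more than 2 times above the higher WT library. Its log2 fold change was 1.72 ± 0.32 (SE; edgeR, unadjusted p = 0.00205, adjusted p = 0.247), with 0.00225 as the adjusted p of DESeq2 and a range of 0.00225 to 0.989 over the alternatives. Hdac4, a class IIa histone deacetylase, had 31.7 and 32.4 CPM in KO and 73.4 and 46.5 CPM in WT, a log2 fold change of -0.91 ± 0.27 (SE; edgeR, unadjusted p = 0.0173, adjusted p = 0.455). The spread of Hdac4 lay in WT, and without WT replicate 1 its log2 fold change was -0.54. Hdac4 also shares 3536 of its 15813 exonic bases with a gene on the opposite strand, so its count is uncertain.

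St8sia4 and Ramp1 complete the 8. St8sia4, the polysialyltransferase that adds sialic acid chains to the neural cell adhesion molecule, lies 1543 kb above the centre (ENSMUSG00000040710, 95587682 to 95667571, minus strand). It had 32.9 and 29.3 CPM in KO and 66.2 and 42.8 CPM in WT, a log2 fold change of -0.81 ± 0.27 (SE; edgeR, unadjusted p = 0.0268, adjusted p = 0.497). As with Hdac4, WT replicate 1 was the highest library, and without it the log2 fold change was -0.46. Ramp1, the accessory subunit of the receptor for calcitonin gene-related peptide, had 101.2 and 108.9 CPM in KO and 79.3 and 69.2 CPM in WT, a log2 fold change of 0.50 ± 0.16 (SE; edgeR, unadjusted p = 0.0224, adjusted p = 0.474). The plot of the 8 genes per library shows that their groups do not overlap, which is no separate result, since the same values gave the p. Without KO replicate 1, Ing5, Hdac4, St8sia4 and Ramp1 no longer had an unadjusted p under 0.05. Without KO replicate 2, Hdac4, St8sia4 and Ramp1 did not, without WT replicate 1 Hdac4 and St8sia4 did not, and without WT replicate 2 Ramp1 did not.

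**Figure D3:**
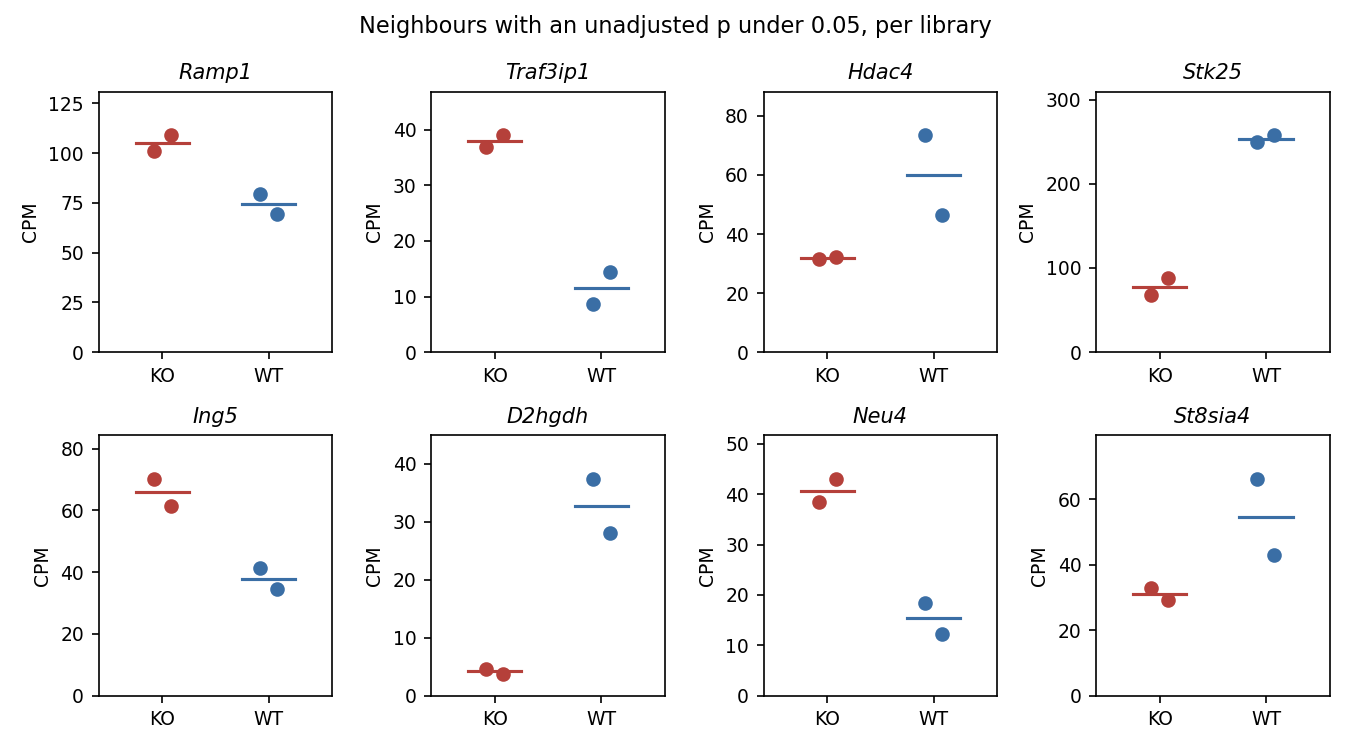
CPM in each library for the 8 neighbours with an unadjusted p under 0.05, in order along the chromosome. Each panel gives CPM on a linear axis from 0, points are single libraries (KO left, WT right) and bars are group means. In all 8 panels the groups do not overlap, and in Hdac4 and St8sia4 the WT libraries lie far apart. The genes were chosen by their p in the same libraries, so the lack of overlap is no separate result.

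The remaining neighbours are given by role. Of the 5 members that act in transcription and chromatin, Hes6, a basic helix-loop-helix factor of neural differentiation, was the most abundant, at 419.5 and 415.5 CPM in KO and 396.6 and 347.2 CPM in WT (log2 fold change 0.17 ± 0.12 SE). The clock gene Per2 had a log2 fold change of 0.09, and Hdac4 and Ing5 of this group are described above. Of the 5 kinases and phosphatases, only Stk25 had an unadjusted p under 0.05 in edgeR. The log2 fold changes of the other 4 lay between -0.31 in Pask, a nutrient-sensing kinase, and 0.26 in the phosphatase Dusp28. Ilkap, a phosphatase that binds integrin-linked kinase, had 83.6 and 83.7 CPM in KO and 82.3 and 106.4 CPM in WT. Ppp1r7, a regulator of protein phosphatase 1, had 122.2 and 140.4 CPM in KO and 133.8 and 152.9 CPM in WT. Both overlapped between the groups. Exons of Ilkap, Ppp1r7, Pask, Dusp28 and Scly, and of Thap4 above, share bases with a gene on the opposite strand, so their counts are uncertain too.

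Protein turnover was held by 6 members, of which 0 had an unadjusted p under 0.05. Their median log2 fold change was -0.21, and they ran from -0.38 in Cops9, a small subunit of the COP9 signalosome, to 0.18 in Asb1, an adaptor of ubiquitin ligases. Capn10, a calpain, had 100.4 and 99.3 CPM in KO and 128.2 and 111.7 CPM in WT, which did not overlap (log2 fold change -0.26 ± 0.15 SE, unadjusted p = 0.131). It shares 639 exonic bases with the antisense gene 9430060I03Rik, so both counts are uncertain. The antisense gene had 54 and 28 counts in KO and 14 and 44 in WT. Ube2f, the conjugating enzyme for NEDD8, overlapped between the groups, at 68.7 and 71.3 CPM in KO and 64.4 and 72.3 CPM in WT. It is 97.7% identical over 558 bases to Gm7099, so its count is uncertain. Rnpepl1, an aminopeptidase relative, had a log2 fold change of -0.30.

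Among the 5 members of mitochondria and metabolism, D2hgdh alone had an unadjusted p under 0.05 in edgeR. Ndufa10, a subunit of respiratory complex I, had 19.0 and 15.6 CPM in KO and 14.9 and 15.4 CPM in WT. Mterf4, which works in mitochondrial ribosome assembly, had 32.0 and 34.3 CPM in KO and 26.9 and 22.0 CPM in WT (log2 fold change 0.44 ± 0.24 SE, unadjusted p = 0.121). Its exons share 1855 bases with those of Sned1, a matrix protein gene on the other strand, so both counts are uncertain. Sned1 had 18.1 and 12.4 CPM in KO and 15.5 and 5.91 CPM in WT, with a wide spread in WT. Scly, the selenocysteine lyase, lay at -0.04. The mitochondrial and metabolic members thus shared no direction.

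Of the 3 motor, septin and traffic genes, Kif1a, the kinesin that carries synaptic vesicle precursors, was the most abundant neighbour by counts, at 656.9 and 571.3 CPM in KO and 681.2 and 597.4 CPM in WT. These values overlapped, with a log2 fold change of -0.06 ± 0.12 (SE). Sept2, a septin of the cell cortex, had 76 and 31 counts in KO and 28 and 17 in WT (log2 fold change 1.22 ± 0.88 SE). A second annotated gene of the same name shares 3335 of its 7979 exonic bases, so its count is uncertain. Hdlbp, whose product vigilin binds RNA, had 153.9 and 136.8 CPM in KO and 145.6 and 111.5 CPM in WT, which overlapped. Gpc1, a glypican that carries heparan sulfate, had 79.3 and 71.6 CPM in KO and 66.4 and 60.2 CPM in WT (log2 fold change 0.25 ± 0.17 SE, unadjusted p = 0.197). Its groups did not overlap, and 977 of its exonic bases are shared with Ankmy1 on the other strand, so its count is uncertain. Crocc2, a relative of the ciliary rootlet protein, had 160 and 26 counts in KO and 113 and 45 in WT, so the spread within each group exceeded the difference between them.

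The low-count neighbours carried wide errors. Gpr35, a G protein-coupled receptor, had 24 and 33 counts in KO and 13 and 0 in WT (log2 fold change 2.16 ± 1.75 SE). Without WT replicate 2 its log2 fold change was 1.19, and without WT replicate 1 no fold is given, since the WT count left is 0. The pseudogenes Gm7785 and Gm7867 had log2 fold changes of 1.35 ± 1.25 and -1.26 ± 1.63 (SE). Gm37642, which lies within St8sia4, had 91 and 41 counts in KO and 29 and 8 in WT (1.84 ± 0.95), the opposite direction to its host, with an unadjusted p of 0.104. Without WT replicate 1 the log2 fold change of Gm37642 was 2.86. Gm15427, a processed pseudogene, had 54 and 56 counts in KO and 76 and 63 in WT, and its count is uncertain. Fam174a, the nearest member above Pdcd1, had 10.2 and 8.65 CPM in KO and 12.7 and 6.81 CPM in WT. Rbm44 had 0 and 0 counts in KO, 52 in WT replicate 2 and was not listed in WT replicate 1. It did not pass the filter of the original fit, the edgeR fit reported above, and was not tested there. Some alternatives, such as the fit without a low-count filter, did include Rbm44, and there its value rests on WT replicate 2 alone. At the limit of 40 counts, Gm7867 with 48 and Rbm44 with 52 lay just inside, and Panct2 with 36 and Gm37048 with 35 lay just outside.

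**Figure D4:**
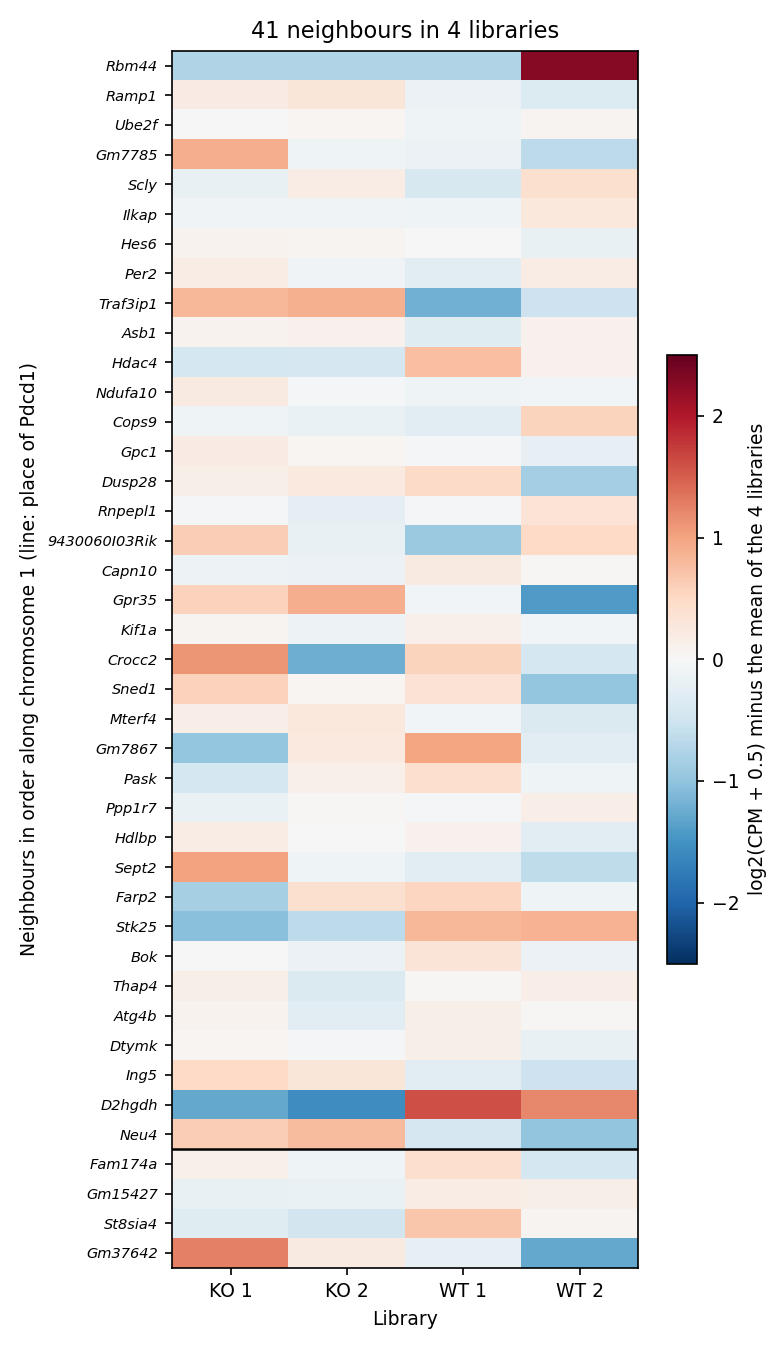
All 41 neighbours in the 4 libraries, in order along the chromosome, with a line at the place of Pdcd1. The colour is log2(CPM + 0.5) minus the mean of the 4 libraries for that gene, KO libraries on the left. D2hgdh and Stk25 are blue in both KO columns and red in both WT columns, Traf3ip1 and Neu4 the reverse, and several low-count genes differ within a group.

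Per length, the neighbours spanned a wide range of levels. Over the 4 libraries, Hes6 had 218.3 CPM per kb of exon, Dtymk 84.5 and Kif1a 67.2, and Rbm44 had the least at 0.14. Stk25 had 13.4 CPM per kb in KO and 43.7 in WT, so its place among the neighbours by level depends on the group. D2hgdh had 0.98 CPM per kb in KO and 7.64 in WT.

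Within the groups, the absolute difference of the libraries on the log2(CPM + 0.5) scale had a median over the neighbours of 0.20 in KO and of 0.41 in WT, where all tested genes had 0.29 in KO and 0.39 in WT. For Stk25 the difference of replicate 2 minus replicate 1 was 0.39 in KO and 0.04 in WT, and for D2hgdh it was -0.27 in KO and -0.41 in WT, each smaller than the difference between the groups.

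Elsewhere on chromosome 1 the share of genes with an unadjusted p under 0.05 was 10%, or 121 of 1210 tested genes. In the window of equal length (6.1 Mb) just below, it was 5 of 63, all 5 higher, and in the one just above, 0 of 10. Set beside 8 of 40 among the neighbours, these are descriptions, and the difference between the windows was not tested. Medians were 0.07 in the window below, -0.08 in the one above and -0.02 over the rest of the chromosome.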

How the data were processed

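The authors deposited 4 tables, 1 for each pair of a KO and a WT library, with whole-number counts per gene, per the file headers. The submitters' processing notes list HTSeq 0.6.0, TopHat2 2.0.12 and Bowtie2 2.2.3 without roles, and name mm9, but 21269 of 23475 positions matched GENCODE M21 (GRCm38). Tables were joined by gene, with 0 disagreements, and a count missing from every table was set to 0 and can be at most 4.

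KO and WT were compared over all genes with edgeR 4.0.16 (R 4.3.3; TMM, filterByExpr minimum count 10, quasi-likelihood F test, Benjamini-Hochberg, threshold 0.05). This fit is the one called original in the text, and it is not an analysis by the authors. Each SE was derived from the log2 fold change and the F value. CPM used TMM-scaled libraries, with 1 count worth 0.0593 to 0.0695 CPM. Alternatives were DESeq2 1.42.0, limma-voom (limma 3.58.1), other scalings, filters and window limits, the replicate number as a block, and fits without 1 library. The fit was tested on simulated counts with a lower dispersion than the common dispersion of 0.2036 in these data. That test does not give the error rates at the spread seen here. Near copies were transcripts at least 95% identical over 200 bases.

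Genes named with values were the nearest 5 tested on each side (4 exist above), the 10 with the smallest p, the 6 most abundant and up to 3 per role; others complete the account. Members and lists were chosen with earlier results of these data known.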

Additional observations from a re-analysis of the deposited data

How the results depend on the processing

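With 2 libraries a group and 2 residual degrees of freedom, edgeR called 0 neighbours at an adjusted p under 0.05, against 0.017% of all genes. DESeq2 called 4 (against 2.14%) and limma-voom 1 (against 0.158%). Without a low-count filter, edgeR called 2, D2hgdh and Stk25 (against 0.239% of all genes). At a mean CPM of at least 5 it called the same 2 (against 0.558%). Fits without 1 library leave 1 library in a group, and their counts at this threshold are not given. The count at an unadjusted p under 0.05 was 8, and 4 to 10 without 1 library, with 3.27% of all genes in the fit that gave 4 (without KO replicate 1) and 13.8% in the fit that gave 10 (without WT replicate 1). Groups were separated for 18 neighbours, and for 23 to 34 without 1 library (33 without WT replicate 1 and 34 without WT replicate 2), where fewer samples make separation easier. The share of all tested genes with separated groups was 39.6% with all 4 libraries, and was not computed for the fits without 1 library. The counts of 23 to 34 thus have no background, and nothing about the neighbours can be read from them. Within 1.5 Mb of the centre, 4 of 27 tested neighbours had an unadjusted p under 0.05 in edgeR, against 8.29% of all tested genes. Of the same 27, 10 were separated, against 39.6% of all tested genes. The median log2 fold change of neighbours ran from -0.03 to 0.06 without 1 library, and was -0.05 at a mean CPM of at least 5 and -0.06 within 1.5 Mb.

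With the replicate number as a block, 0 neighbours passed at an adjusted p under 0.05 in edgeR, against 0.0226% of all genes. At an unadjusted p under 0.05 there were 8, against 7.41% of all genes. Separation is read from CPM values, which the block does not change, so 18 neighbours remained separated. The median log2 fold change was 0.02, and no call among the neighbours changed. Deviations of same-numbered libraries from their group means correlated at 0.04, and 2 pairs do not show a pairing.

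Over the named neighbours, 305 recomputed fold changes kept direction and side of the threshold, 10 passed where the original did not, and 19 turned direction, all of them in genes without an unadjusted p under 0.05 in the original fit. Crocc2 was -0.24 in limma-voom and -0.17 with the block, and Fam174a 0.0117 with the block. Without 1 library the log2 fold change ran from -1.62 to 1.02 in Crocc2, -0.43 to 0.47 in Fam174a, -1.20 to 0.16 in Farp2, -0.36 to 0.0064 in Atg4b, -0.41 to 0.0755 in Bok, -0.14 to 0.19 in Dtymk, -9e-04 to 0.38 in Hdlbp, -0.35 to 0.025 in Ilkap, -0.16 to 0.0413 in Kif1a, -0.0236 to 1.37 in Sned1 and -0.0443 to 0.12 in Ube2f. Among those that kept direction, Gpr35 ran from 1.19 to 2.36 (leaving aside the fit without WT replicate 1, whose WT count is 0), Gm37642 from 1.14 to 2.86 and Sept2 from 0.42 to 1.73. The cause was not tested. Adding the copies to D2hgdh and Farp2 to Stk25 was chosen after seeing the data.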

Other observations

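Among the 24 listed genes of the window with fewer than 40 counts, several had counts in 1 group or 1 library only. Espnl, a relative of the actin-bundling espin, had 27 and 6 counts in KO and 0 and 0 in WT. Erfe, which encodes the hormone erythroferrone, had 32 counts in KO replicate 2 and 0 in both WT libraries, and Ano7 had 20 counts in KO replicate 2 and 0 in both WT libraries; neither was listed in KO replicate 1. On the WT side, Gm37600 had 15 counts in WT replicate 2 and 0 in both KO libraries, and was not listed in WT replicate 1. Otos had counts in all libraries, 4 and 6 in KO and 18 and 1 in WT. KO replicate 2 had the most genes with a count, 21583 against 19199 to 20352 in the other libraries. The share of genes with counts in 1 group or 1 library only was not computed over all listed genes. Of 61 protein-coding genes that GENCODE M21 places in the window, 43 were listed and 36 were members.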
